A study of Homo sapiens with 18 samples.

Results

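The SLC25 carriers are the proteins that move metabolites, nucleotides and cofactors across the inner membrane of mitochondria. The members described here are the protein-coding genes whose symbol is SLC25A followed by a number, 48 of the 27086 genes counted. RNA-seq was done on 786-O cells, a long-used line of human clear-cell kidney cancer in which the tumour suppressor VHL is not functional. In the USP13 experiment, cells carried hairpin sh50 or sh52 against USP13, a deubiquitinase, or a control hairpin, shCtrl. In the ZHX2 experiment, cells carried hairpin sh43 or sh45 against ZHX2, a zinc-finger and homeobox transcription factor, or a separate set of shCtrl libraries. Each of the 6 groups held 3 libraries, described in the labels as triplicates of this single cell line. The labels do not say whether these were separate cultures, and a p-value here therefore reflects the scatter among such libraries, part or all of which may be technical.

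Most SLC25 carriers share a fold of repeated pairs of membrane-spanning helices and act as exchangers, importing a substrate against the export of another. The family links the matrix to the cytosol. ADP/ATP translocases and the phosphate carrier serve ATP synthesis, and the citrate carrier exports citrate for fatty acid synthesis. The aspartate/glutamate carriers serve the malate-aspartate shuttle, and other members bring in iron, coenzyme A, folate, NAD+ or glutathione. In the kidney, proximal tubule cells are rich in mitochondria, while VHL-deficient clear-cell carcinomas are known for high glycolysis and lipid storage. RNA levels do not show the amount or the activity of the carrier proteins.

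The targeted genes were read first. USP13 had 16.8, 17.1 and 20.5 CPM (counts scaled to library size with edgeR's TMM factors) with sh50 and 14.8, 18.1 and 17.9 CPM with sh52, against 36.9, 34.7 and 31.8 CPM with its shCtrl. ZHX2 had 38.6, 43.4 and 38.6 CPM with sh43 and 90.8, 82.1 and 79.6 CPM with sh45, against 340.3, 344 and 344 CPM with its shCtrl. In each experiment the hairpin libraries lay below all 3 control libraries for the named target, although the treatment protocol in the labels lists hairpins 43 and 45 under USP13. ZHX2 was also lower with the USP13 hairpins, with a log2 change of -0.20 for sh50 and -0.17 for sh52 (edgeR adjusted p = 0.0086 and 0.047). USP13 in turn was lower with sh43 (log2 change -0.23, edgeR adjusted p = 0.016) and did not pass with sh45 (0.165, adjusted p = 0.085). The libraries held between 11192561 and 16511290 counts. Over the 18 libraries, 9 of 9 renal epithelial and 786-O markers had a median of at least 1 TPM (abundance scaled to transcript length and to the library), with summed levels of 3510 to 5390 TPM per library. None of 7 leukocyte markers (summed 0 to 2.12 TPM, CD3E at 0) and none of 5 endothelial markers (summed 0 to 0.152 TPM) did. Replicate 1 of sh52 stood apart, with 15490 genes having a count, against 15867 to 16307 in the other libraries. The share of counts from mitochondrial ribosomal RNA also moved with the groups, at 4.11% to 4.43% with sh50 and 3.54% to 3.80% with sh52, against 2.54% to 2.70% with shCtrl. It was 1.51% to 1.57% with sh43 and 2.83% to 3.35% with sh45, against 1.18% to 1.32% with shCtrl. Its part in the results below was not tested.

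Levels within a library were compared as TPM, which accounts for the transcript lengths listed in the files. The deposited counts appeared evenly split between the transcripts of a gene, and why is not stated. The TPM of a member with several listed transcripts depends on that split. SLC25A1 and SLC25A39 are listed with 4 transcripts each and SLC25A3 with 3, while SLC25A5 and SLC25A23 have 1 each. The family was led by 5 members with more than 100 TPM in the mean of the 2 control groups, which together made up 63.9% of the family's TPM. This share and the sums of the family are over the members whose level could be read, and leave out SLC25A6, an ADP/ATP translocase that the files list at 0. The 5 members were SLC25A3, the phosphate carrier, at 451 TPM, SLC25A5, an ADP/ATP translocase, at 357 TPM, SLC25A1, the citrate carrier, at 179.7 TPM, SLC25A39, a glutathione carrier, at 155 TPM, and SLC25A23, an ATP-Mg/phosphate carrier, at 111 TPM. SLC25A23 was at 125 TPM in the USP13 controls and 97.8 TPM in the ZHX2 controls. The 2 control groups also differed for other members, such as SLC25A16 (30.6 and 15.3 TPM) and, the other way, SLC25A26 (12.7 and 22.2 TPM). A further 23 members lay between 10 and 100 TPM, 11 between 1 and 10 TPM and 9 were listed under 1 TPM, SLC25A6 among them, whose level cannot be read. In the USP13 shCtrl libraries the first 6 places were separated, with no overlap between the 3 libraries of a member and those of the next. From SLC25A37 downwards most neighbours overlapped. Over the whole order, neighbouring members overlapped in 26 of 38 pairs in the USP13 controls and in 20 of 35 pairs in the ZHX2 controls, so that the order among the middle and low members is not resolved by 3 libraries. The annotation lists 9 pseudogenes of SLC25A5, 5 each of SLC25A1 and SLC25A15, 4 of SLC25A51, 3 of SLC25A3 and 2 each of SLC25A24 and SLC25A39, and how reads were shared with such copies is not given in the sources used here.

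**Figure D1:**
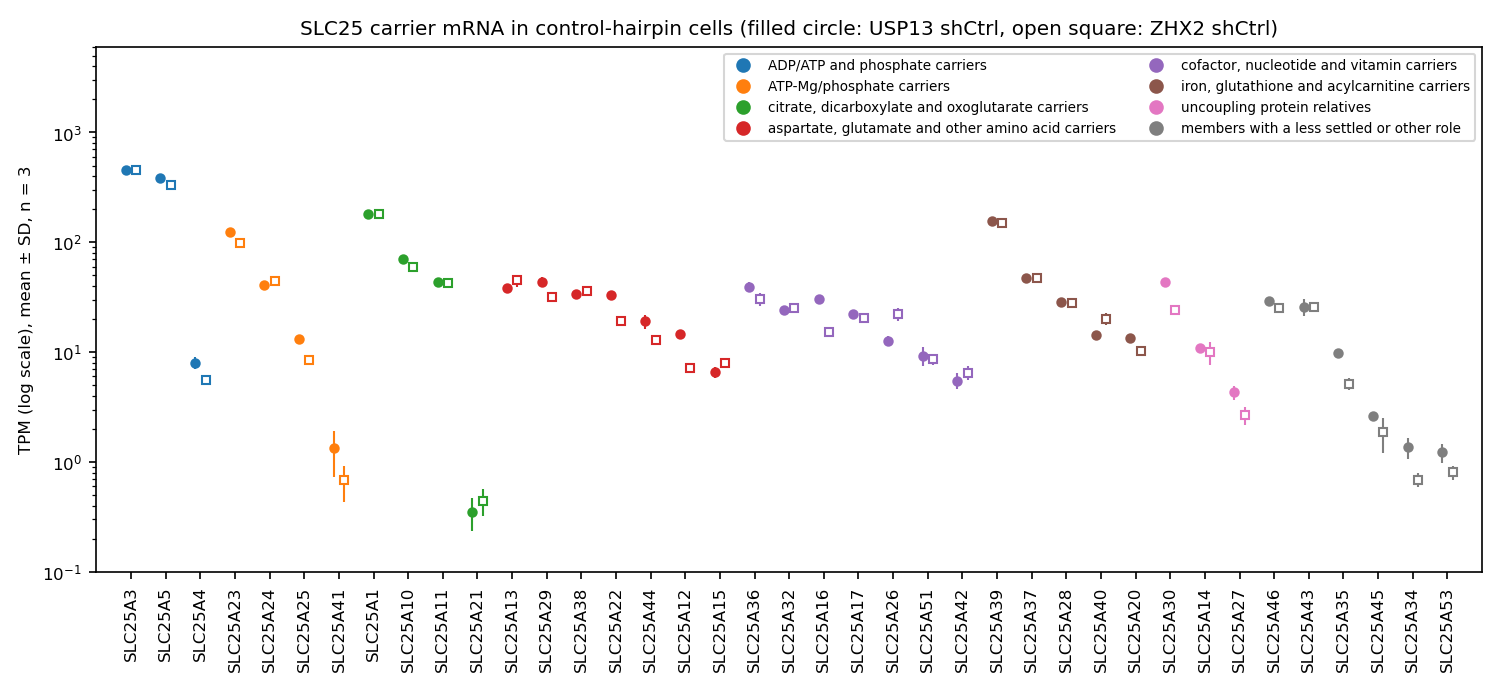
Levels of 39 tested SLC25 members in control-hairpin cells, as TPM on a log axis, grouped by role and ordered by mean level within a role. Filled circles are the USP13 shCtrl mean and open squares the ZHX2 shCtrl mean, with SD over 3 libraries; SLC25A3 and SLC25A5 are highest and SLC25A21 is lowest among those tested.

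In all, 9 members were not tested in at least 1 experiment. SLC25A31, the testis ADP/ATP translocase, SLC25A48 and SLC25A6 were listed at 0 in all 18 libraries. For SLC25A6 this zero is not a reading of its level, since the files list its transcript in 2 copies, and 1906 of the 2167 transcripts listed in 2 or more copies (88.0%) were at 0 in all libraries, against 11074 of 58255 transcripts listed in a single copy (19.0%). SLC25A33, SLC25A47 and SLC25A52 each had 1 count in all libraries together, and SLC25A2 had 11. SLC25A18, a glutamate carrier, had 3 to 12 counts per library, and SLC25A41 had 165 counts in all and passed the filter on low counts in the USP13 experiment only. A level of 3 counts corresponds to 0.182 to 0.268 CPM here, and lower levels cannot be told from 0. After the filter, 40 members were tested in the USP13 experiment and 39 in the ZHX2 experiment.

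The summed level of the family in CPM moved little. It was 2483 ± 7.95 CPM with sh50 and 2427 ± 52.2 CPM with sh52, against 2436 ± 7.90 CPM with the USP13 shCtrl (SD, n = 3 each). It was 2112 ± 18.6 CPM with sh43 and 2053 ± 36.3 CPM with sh45, against 2091 ± 40.2 CPM with the ZHX2 shCtrl (SD, n = 3 each). The sh43 and sh45 libraries overlapped their controls in this sum, as did the sh52 libraries, while the sh50 libraries lay above theirs. Summed as TPM, the family was at 2032 ± 66.0 with sh50 and 2043 ± 17.9 with sh52, against 2052 ± 58.5 with the USP13 shCtrl, and at 1888 ± 19.1 with sh43 and 1585 ± 6.47 with sh45, against 1872 ± 49.7 with the ZHX2 shCtrl (SD, n = 3 each). Summed as TPM, the sh45 libraries thus lay below all controls, a difference that the CPM sum did not show. The CPM values carry TMM factors and the TPM values do not. A gap between the scales was also seen in SLC25A5, listed with 1 transcript. Its mean was 308.6 TPM with sh45 against 329.1 TPM with shCtrl, but 226.1 CPM against 209.2 CPM. The lower TPM sum is therefore not read as a fall of the family per length, and its cause was not tested. In whole-cell RNA of this cell line, these sums are relative and do not show the amount of RNA per cell.

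Calls were made with edgeR's quasi-likelihood test at a Benjamini-Hochberg adjusted p under 0.05 over all genes of an experiment. With sh50, 7 of 40 members rose and 3 fell, where 10.2% of all tested genes were called higher and 11.3% lower. With sh52, 4 of 40 rose and 2 fell, where 5.45% of genes were called higher and 6.56% lower. The ZHX2 hairpins gave more calls. With sh43, 14 of 39 members rose and 13 fell, where 33.5% of genes were called higher and 35.2% lower, and with sh45, 12 of 39 rose and 10 fell, where 25.3% were higher and 27.3% lower. The members' shares were 17.5% higher and 7.5% lower with sh50, 10.0% and 5.0% with sh52, 35.9% and 33.3% with sh43, and 30.8% and 25.6% with sh45. The median log2 change of the tested members was 0.13, 0.02, 0.04 and 0.045 with sh50, sh52, sh43 and sh45, beside 0.003, -0.001, -0.022 and -0.007 over all tested genes. With every hairpin the share of higher members lay above the background and that of lower members below it. The counts are small and no test of the list was made, so nothing is called particular to the family. Both hairpins of a target were set against the same 3 shCtrl libraries, so that agreement between them is not independent.

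**Figure D2:**
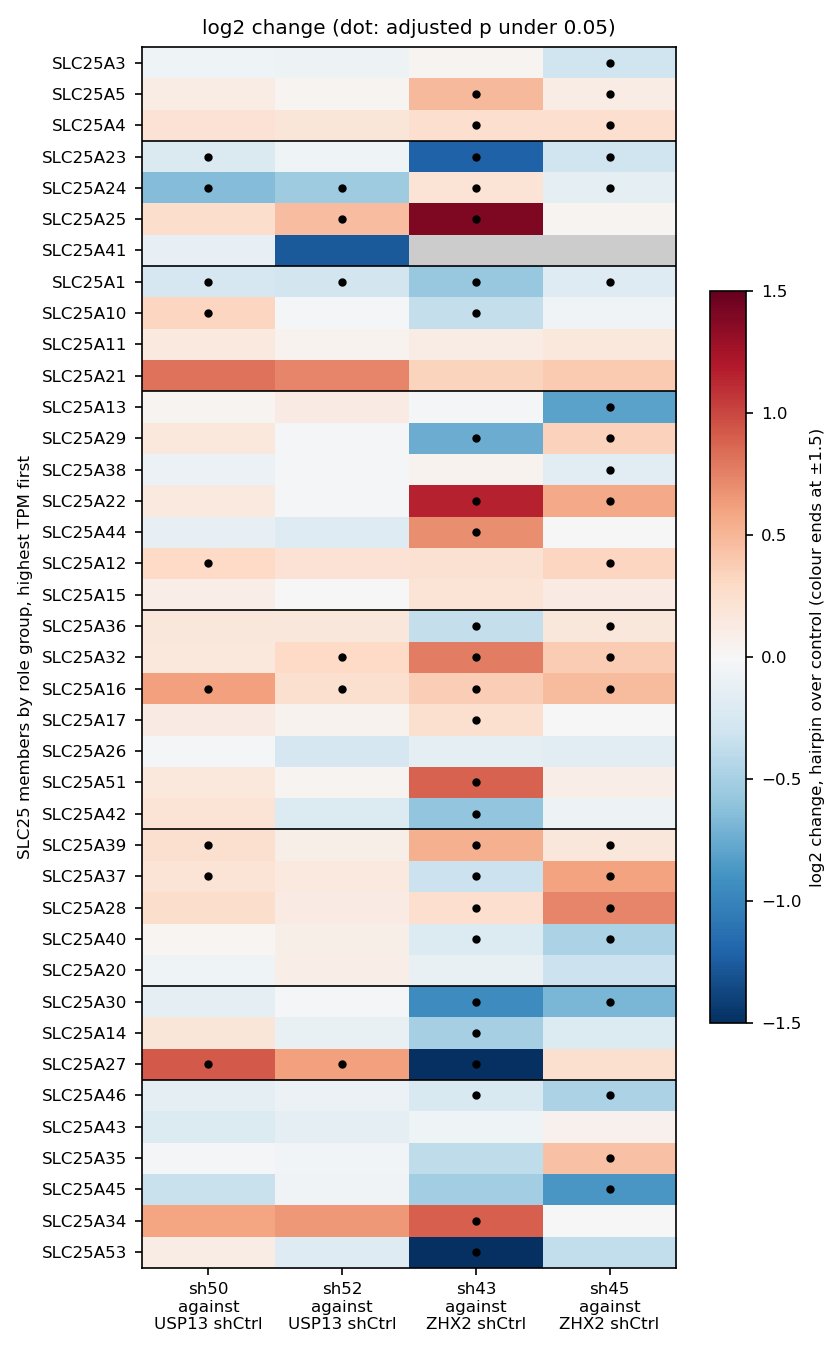
log2 change of 39 tested SLC25 members with each hairpin over its own shCtrl, as colour, with role groups separated by lines and a dot where the edgeR adjusted p was under 0.05. SLC25A1 carries a dot in all 4 columns on the lower side and SLC25A16 on the higher side, while SLC25A27 is higher in both USP13 columns and lower in the sh43 column; grey marks a member not tested.

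Promoter sequences are shown for 4 members that the results turn on, namely SLC25A1, which was lower with every hairpin, SLC25A13, which was lower with sh45, SLC25A25, which was highest with sh43, and SLC25A27, which rose with sh50 and sh52 and fell with sh43. They are RefSeq sequences of build GRCh38.p14, from 250 bases before to 50 bases from the start of transcription. Capitals mark a match to a searched motif.
SLC25A1 promoter, chr22:19178687-19178986, minus strand, no match: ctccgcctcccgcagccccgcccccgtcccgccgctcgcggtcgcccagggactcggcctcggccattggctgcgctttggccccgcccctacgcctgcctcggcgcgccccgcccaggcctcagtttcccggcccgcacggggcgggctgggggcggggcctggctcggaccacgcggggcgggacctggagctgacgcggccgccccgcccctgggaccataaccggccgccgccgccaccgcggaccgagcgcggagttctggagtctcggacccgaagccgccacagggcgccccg
SLC25A13 promoter, chr7:96322049-96322348, minus strand, E-box in capitals: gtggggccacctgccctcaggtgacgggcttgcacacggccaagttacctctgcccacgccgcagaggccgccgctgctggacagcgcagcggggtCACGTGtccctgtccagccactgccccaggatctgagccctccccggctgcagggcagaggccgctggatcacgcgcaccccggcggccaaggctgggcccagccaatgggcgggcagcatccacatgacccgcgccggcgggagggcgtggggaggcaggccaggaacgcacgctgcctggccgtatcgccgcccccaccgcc
SLC25A25 promoter, chr9:128098257-128098556, plus strand, cyclic AMP response element in capitals: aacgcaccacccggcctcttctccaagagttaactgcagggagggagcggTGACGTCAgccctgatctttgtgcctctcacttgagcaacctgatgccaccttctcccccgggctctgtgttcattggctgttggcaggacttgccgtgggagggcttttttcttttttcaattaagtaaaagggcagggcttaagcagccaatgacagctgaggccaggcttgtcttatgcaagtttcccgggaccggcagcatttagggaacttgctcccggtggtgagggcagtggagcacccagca
SLC25A27 promoter, chr6:46652725-46653024, plus strand, no match: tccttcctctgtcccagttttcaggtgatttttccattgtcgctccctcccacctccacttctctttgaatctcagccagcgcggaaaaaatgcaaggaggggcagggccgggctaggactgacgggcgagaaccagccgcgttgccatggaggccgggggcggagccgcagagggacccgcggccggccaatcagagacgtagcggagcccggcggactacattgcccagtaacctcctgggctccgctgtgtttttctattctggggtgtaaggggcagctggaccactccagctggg
The E-box CACGTG, read by factors of the MYC and USF families, begins 154 bases before the start in SLC25A13. The cyclic AMP response element TGACGTCA, read by factors of the CREB family, begins 200 bases before the start in SLC25A25, in 1 of its listed promoters.

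RefSeq promoter entries were found for 40 of the 48 members, 51 entries in all. Both strands were searched. The E-box CACGTG stood in 9 of 51 entries (17.6%), against 7.26% of all 35116 promoter entries. Besides SLC25A13, these belonged to SLC25A22, SLC25A26, SLC25A31, SLC25A33, SLC25A36, SLC25A38, SLC25A46 and SLC25A51. The core ACGTG, which every CACGTG contains, stood in 15 entries (29.4%) against 21.4% of all. It is the core of the hypoxia response element. TGACGTCA stood in 3 entries (5.88%) against 1.85%, those of SLC25A25, SLC25A33 and SLC25A36. TCACNCCAC, a sterol response element, stood in 1 entry (SLC25A40; 1.96% against 1.13%), and TGANTCA, the AP-1 site, in 2 (SLC25A22 and SLC25A48; 3.92% against 7.71%). TGATGNAA, the ATF4 composite site, stood in 1 (SLC25A11; 1.96% against 3.62%), and the NRF1 core, searched as its palindromic consensus, in 0, against 1.24%. The members with an E-box went in both directions with sh43, SLC25A22 and SLC25A51 being higher and SLC25A36 and SLC25A46 lower. A match describes the letters in this window and not binding of a factor.

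The ADP/ATP translocases exchange matrix ATP for cytosolic ADP, and SLC25A3 imports the phosphate. None of the 3 tested members passed with a USP13 hairpin. SLC25A5, the more abundant of the 2 tested ADP/ATP translocases, rose with sh43 to 292 ± 1.38 CPM and with sh45 to 226 ± 2.03 CPM, against 209 ± 5.29 CPM with shCtrl (SD, n = 3 each). The sh43 test gave a log2 change 0.48 ± 0.044, edgeR adjusted p = 2.3e-10, and the sh45 test 0.11 ± 0.044, adjusted p = 0.035 (edgeR). The sh45 call for SLC25A5 ended without any 1 of sh45 replicates 1, 2 and 3 and ZHX2 shCtrl replicate 1, and with the replicate number as a block and with only the compared groups fitted (adjusted p reaching 0.144). SLC25A4, the translocase of heart and muscle, also rose with both, by a log2 change of 0.25 ± 0.11 and 0.26 ± 0.11 (edgeR adjusted p = 0.042 and 0.046). The sh43 call for SLC25A4 ended without any 1 of sh43 replicates 1 and 2 and ZHX2 shCtrl replicates 2 and 3, and with upper-quartile scaling and in DESeq2 (adjusted p reaching 0.153), and its sh45 call without any 1 of sh43 replicate 2, sh45 replicates 1 and 2 and ZHX2 shCtrl replicates 2 and 3, and with all genes kept, with only the compared groups fitted and in DESeq2 (adjusted p reaching 0.163). SLC25A3 had 396, 409.7 and 406 CPM with sh43 and 316, 320.5 and 324 CPM with sh45, against 371, 403 and 404.5 CPM with shCtrl. All sh45 libraries lay below the controls while the sh43 libraries overlapped them, and by the test SLC25A3 fell with sh45 (log2 change -0.30 ± 0.043, edgeR adjusted p = 2.4e-06; sh43 0.04 ± 0.043, adjusted p = 0.42). In the USP13 experiment SLC25A3 had 393, 394 and 378 CPM with sh50 and 369, 393.5 and 394 CPM with sh52, against 405, 399.7 and 418 CPM with shCtrl. The hairpin libraries lay below the controls without overlap, but the difference did not pass (log2 -0.07 ± 0.049 and -0.08 ± 0.049; edgeR adjusted p = 0.35 and 0.32).

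The ATP-Mg/phosphate carriers set the size of the matrix adenine nucleotide pool, and SLC25A23, SLC25A24 and SLC25A25 have calcium-binding domains facing the intermembrane space. They moved in different directions. SLC25A24 was the member that fell most with the USP13 hairpins. It had 48.8, 52.4 and 56.4 CPM with sh50 and 61.9, 60.6 and 49.5 CPM with sh52, against 80.3, 85.8 and 81.9 CPM with shCtrl. All 6 hairpin libraries lay below the lowest control (sh50 log2 change -0.65 ± 0.080, edgeR adjusted p = 1.4e-06; sh52 -0.53 ± 0.080, adjusted p = 5.4e-05), which is 0.637 and 0.693 times the control. In the ZHX2 experiment SLC25A24 had 91.6, 101 and 102 CPM with sh43 and 81.1, 75.2 and 73.3 CPM with sh45, against 84.9, 87.5 and 82.4 CPM with shCtrl. It rose with sh43 (log2 change 0.21 ± 0.062, edgeR adjusted p = 0.0041) and fell with sh45 (-0.15 ± 0.062, adjusted p = 0.046), but the sh45 call ended without any 1 of sh43 replicates 2 and 3, sh45 replicates 2 and 3 and ZHX2 shCtrl replicates 1 and 2, and with upper-quartile scaling, with all genes kept, with the replicate number as a block, with only the compared groups fitted and in DESeq2 (adjusted p reaching 0.201).

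SLC25A23, the most abundant of the 4 carriers, had 79.6, 80.4 and 77.9 CPM with sh43 and 144, 147.5 and 158 CPM with sh45, against 180.3, 185 and 186 CPM with its shCtrl. The 3 groups did not overlap, and SLC25A23 fell with both hairpins (sh43 log2 change -1.21 ± 0.053, edgeR adjusted p = 7.3e-17; sh45 -0.30 ± 0.051, adjusted p = 2.3e-05). With sh43 it stood at 0.431 times the control. With the USP13 hairpins it had 211, 211 and 214 CPM with sh50 and 232, 233 and 242 CPM with sh52, against 243, 240.5 and 255 CPM with shCtrl. Only the sh50 libraries lay wholly below the controls (log2 change -0.22 ± 0.051, edgeR adjusted p = 0.0031; sh52 -0.06 ± 0.051, adjusted p = 0.47). SLC25A25, which binds calcium like the others and whose gene has several alternative first exons, moved the other way. It had 39.4, 44.6 and 41.5 CPM with sh43 and 14.98, 15.4 and 18.7 CPM with sh45, against 15.4, 17.1 and 15.3 CPM with shCtrl. The sh43 libraries were far above the rest, 2.63 times the control, while the sh45 libraries overlapped the controls (sh43 log2 change 1.40 ± 0.095, edgeR adjusted p = 6.8e-13; sh45 0.04 ± 0.10, adjusted p = 0.74). With the USP13 hairpins SLC25A25 had 34.1, 32.8 and 27.1 CPM with sh50 and 31.8, 35.3 and 39.6 CPM with sh52, against 26.2, 24.5 and 27.1 CPM with shCtrl. All 6 hairpin libraries exceeded the controls, sh50 replicate 3 only just, and SLC25A25 passed with sh52 (log2 change 0.46 ± 0.10, edgeR adjusted p = 0.0035) and not with sh50 (0.27 ± 0.10, adjusted p = 0.063). SLC25A41, a short calcium-independent carrier whose gene overlaps SLC25A23 in the annotation, was near the limit of detection, at 0.894, 0.817 and 1.20 CPM with sh50 and 0.636, 0.0808 and 0.574 CPM with sh52, against 0.623, 1.57 and 0.957 CPM with shCtrl. Overlap here is of the spans of genes in the annotation. Library preparation did not keep strand, so reads from sequence that overlapping genes share cannot be assigned by strand.

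**Figure D3:**
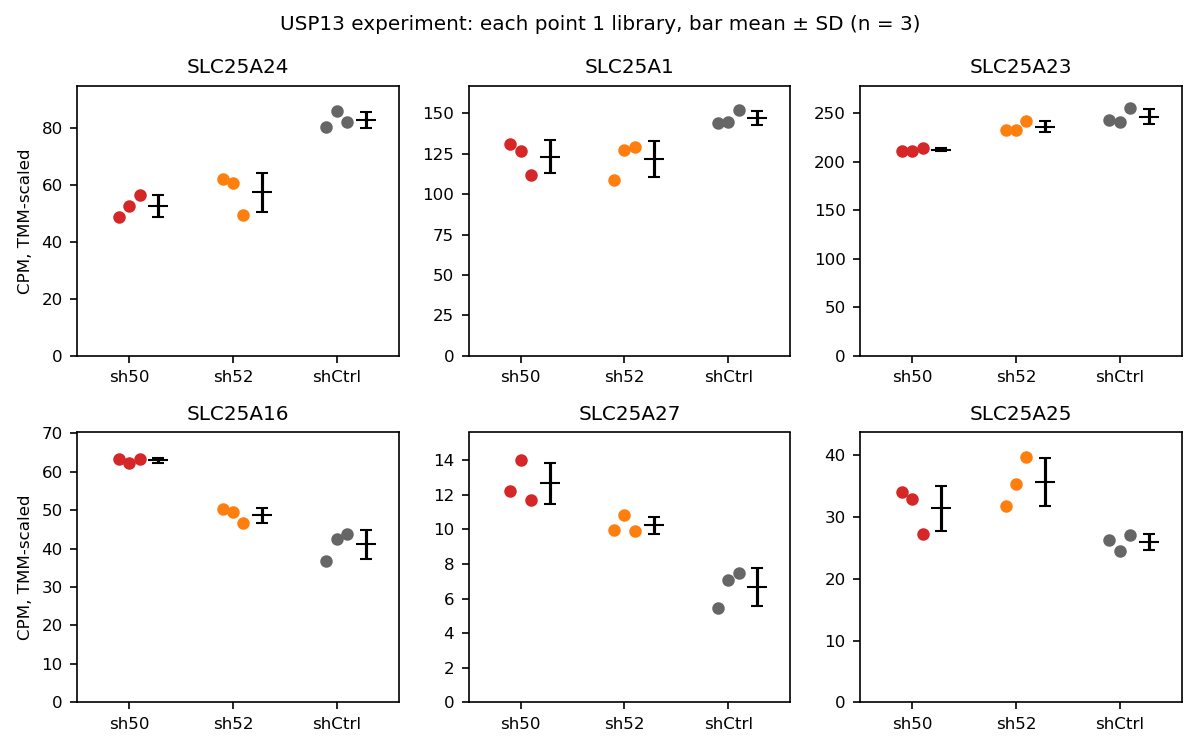
TMM-scaled CPM of 6 members in the 9 libraries of the USP13 experiment, each point 1 library, with mean and SD (n = 3) beside the points. SLC25A24 and SLC25A1 are below the control in all 6 hairpin libraries, SLC25A16 and SLC25A27 are above it, and SLC25A16 is higher with sh50 than with sh52.

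Among carriers of citrate and other acids of the citric acid cycle, SLC25A1 was the member that fell with all 4 hairpins. It had 131, 127 and 112 CPM with sh50 and 109, 127.5 and 129 CPM with sh52, against 144, 145 and 152 CPM with the USP13 shCtrl. All 6 hairpin libraries lay below the 3 controls (sh50 log2 change -0.26 ± 0.069, edgeR adjusted p = 0.0076; sh52 -0.27 ± 0.069, adjusted p = 0.0095). In the ZHX2 experiment it had 89.98, 93.1 and 104 CPM with sh43 and 114.5, 129 and 129.6 CPM with sh45, against 129.5, 150.3 and 145 CPM with shCtrl. The sh43 libraries lay below the controls, and the highest sh45 library just exceeded the lowest control (sh43 log2 change -0.57 ± 0.066, edgeR adjusted p = 2.6e-08; sh45 -0.19 ± 0.065, adjusted p = 0.017). The sh50 call for SLC25A1 ended without sh50 replicate 3 (edgeR adjusted p = 0.0682), and its sh45 call without any 1 of sh45 replicate 1 and ZHX2 shCtrl replicates 2 and 3 (adjusted p reaching 0.134). SLC25A10, the dicarboxylate carrier that exchanges malate or succinate for phosphate, had 86.9, 99.7 and 88.6 CPM with sh50 and 60.1, 78.6 and 77.5 CPM with sh52, against 69.9, 75.7 and 74.3 CPM with shCtrl. It rose by the test with sh50 (log2 change 0.32 ± 0.083, edgeR adjusted p = 0.0052; sh52 -0.03 ± 0.084, adjusted p = 0.88). In the ZHX2 libraries it had 46.1, 48.4 and 47.2 CPM with sh43 and 53.2, 56.6 and 65.3 CPM with sh45, against 57.7, 62.7 and 61.1 CPM with shCtrl, and it fell with sh43 (sh43 log2 change -0.36 ± 0.072, edgeR adjusted p = 9.4e-05; sh45 -0.05 ± 0.071, adjusted p = 0.56). SLC25A11, the oxoglutarate/malate carrier of the malate-aspartate shuttle, passed in none of the 4 comparisons, with log2 changes between 0.05 and 0.16. SLC25A21, the oxoadipate carrier, was at 0.611 ± 0.0425 TPM with sh50 and 0.676 ± 0.436 TPM with sh52, against 0.350 ± 0.115 TPM with shCtrl, and passed in none.

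Of the amino acid carriers, 7 of 9 were tested. SLC25A13 and SLC25A12 (citrin and aralar) are the calcium-regulated aspartate/glutamate carriers. SLC25A13 had 69.5, 77.0 and 77.2 CPM with sh43 and 40.9, 48.9 and 41.7 CPM with sh45, against 69.5, 73.6 and 85.5 CPM with shCtrl. All sh45 libraries lay below every other library of the experiment, at 0.573 times the control, and the sh43 libraries overlapped the controls (log2 change -0.80 ± 0.079, edgeR adjusted p = 2.6e-09 for sh45; sh43 -0.03 ± 0.076, adjusted p = 0.72). SLC25A13 did not pass with the USP13 hairpins and overlapped the controls, at 71.4, 70.3 and 66.4 CPM with sh50 and 67.6, 78.7 and 74.2 CPM with sh52, against 68.1, 71.8 and 62.6 CPM with shCtrl. SLC25A12, its paralogue, rose with sh45 (log2 change 0.33 ± 0.10, edgeR adjusted p = 0.0094) and with sh50 (0.30 ± 0.088, adjusted p = 0.016), and its other log2 changes were 0.22 ± 0.088 with sh52 and 0.23 ± 0.10 with sh43 (adjusted p = 0.1 and 0.051). The sh45 call for SLC25A12 ended without sh45 replicate 1 (edgeR adjusted p = 0.0641), and the sh50 call without any 1 of sh50 replicate 2 and USP13 shCtrl replicates 1 and 2 (adjusted p reaching 0.0786).

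SLC25A22, a glutamate carrier that imports glutamate together with a proton, had 65.2, 59.1 and 66.6 CPM with sh43 and 40.0, 45.3 and 41.8 CPM with sh45, against 28.6, 30.0 and 26.9 CPM with shCtrl. It stood at 2.23 and 1.48 times the control with no overlap between the 3 groups (sh43 log2 change 1.16 ± 0.075, edgeR adjusted p = 2.4e-13; sh45 0.57 ± 0.077, adjusted p = 6.3e-07). With the USP13 hairpins its levels were 56.5, 59.7 and 55.4 CPM with sh50 and 44.7, 54.8 and 53.3 CPM with sh52, against 53.7, 49.6 and 51.3 CPM with shCtrl, and it did not pass (adjusted p = 0.19 and 0.92, edgeR). SLC25A29, a carrier of basic amino acids, went in opposite directions with the ZHX2 hairpins. It fell with sh43 to 24.8 ± 0.928 CPM and rose with sh45 to 53.0 ± 4.40 CPM, against 41.7 ± 2.89 CPM with shCtrl (sh43 log2 change -0.75 ± 0.081, edgeR adjusted p = 7e-09; sh45 0.34 ± 0.075, adjusted p = 0.00041). Its gene overlaps YY1, which had 13911 counts in all libraries against 12776 of SLC25A29, and reads of the overlap were assigned without strand. SLC25A44, a carrier of branched-chain amino acids, rose with sh43 (log2 change 0.69 ± 0.082, edgeR adjusted p = 2.8e-08) and had a log2 change of 0.00 ± 0.085 with sh45. SLC25A38, the glycine carrier needed for haem synthesis, fell with sh45 (log2 change -0.17 ± 0.073, edgeR adjusted p = 0.047), a call that ended without any 1 of sh43 replicates 1 and 3, sh45 replicates 1 and 3 and ZHX2 shCtrl replicates 1, 2 and 3, and with upper-quartile scaling, with all genes kept, with the replicate number as a block, with only the compared groups fitted and in DESeq2 (adjusted p reaching 0.145). SLC25A15, an ornithine carrier of the urea cycle, passed in none of the 4.

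The cofactor, nucleotide and vitamin carriers included the member that rose with all 4 hairpins. SLC25A16, which has been linked to coenzyme A import, had 63.4, 62.3 and 63.3 CPM with sh50 and 50.2, 49.4 and 46.5 CPM with sh52, against 36.8, 42.6 and 43.9 CPM with shCtrl. All hairpin libraries exceeded all controls (sh50 log2 change 0.62 ± 0.077, edgeR adjusted p = 1.8e-06; sh52 0.24 ± 0.079, adjusted p = 0.042). The sh52 call for SLC25A16 ended without any 1 of sh50 replicates 1 and 2, sh52 replicates 1 and 2 and USP13 shCtrl replicates 1 and 2, and with the replicate number as a block and with only the compared groups fitted (adjusted p reaching 0.227). In the ZHX2 experiment it had 24.7, 25.3 and 22.2 CPM with sh43 and 24.8, 25.5 and 27.5 CPM with sh45, against 19.4, 18.4 and 18.1 CPM with shCtrl, again with no overlap (sh43 log2 change 0.37 ± 0.091, edgeR adjusted p = 0.00076; sh45 0.48 ± 0.090, adjusted p = 7.4e-05). SLC25A42, the other coenzyme A carrier of the inner membrane, did not follow it and fell with sh43 (log2 change -0.59 ± 0.15, edgeR adjusted p = 0.00097).

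SLC25A32, the folate and FAD carrier, had 70.1, 71.9 and 75.2 CPM with sh43 and 58.4, 55.1 and 52.2 CPM with sh45, against 46.2, 40.9 and 40.6 CPM with shCtrl. It rose with both, and the groups did not overlap (sh43 log2 change 0.77 ± 0.069, edgeR adjusted p = 1.7e-10; sh45 0.38 ± 0.070, adjusted p = 5.5e-05). With the USP13 hairpins SLC25A32 had 46.9, 45.0 and 50.3 CPM with sh50 and 49.8, 52.0 and 55.6 CPM with sh52, against 45.5, 41.7 and 40.7 CPM with shCtrl, and it rose with sh52 (log2 change 0.30 ± 0.079, edgeR adjusted p = 0.013). That call ended without any 1 of sh52 replicate 3 and USP13 shCtrl replicate 2 (adjusted p reaching 0.0706). SLC25A51, the NAD+ carrier, had 14.7, 14.5 and 15.3 CPM with sh43 and 8.83, 9.93 and 7.14 CPM with sh45, against 7.04, 9.72 and 7.28 CPM with shCtrl. Only the sh43 libraries stood wholly above the controls (log2 change 0.89 ± 0.14, edgeR adjusted p = 4e-06; sh45 0.10 ± 0.15, adjusted p = 0.6). In the USP13 libraries it had 9.57, 12.1 and 11.4 CPM with sh50 and 9.97, 10.3 and 10.2 CPM with sh52, against 11.8, 8.14 and 9.88 CPM with shCtrl, and it did not pass with either. SLC25A36, a pyrimidine nucleotide carrier and the most abundant of this group, had 58.8, 66.5 and 59.9 CPM with sh43 and 87.2, 92.0 and 87.3 CPM with sh45, against 79.7, 69.6 and 87.4 CPM with shCtrl. It fell with sh43 (log2 change -0.35 ± 0.073, edgeR adjusted p = 0.00012) and rose with sh45 (0.17 ± 0.071, adjusted p = 0.047), although the sh45 and control libraries overlapped. The sh45 call for SLC25A36 ended without any 1 of sh43 replicates 1 and 3, sh45 replicates 1, 2 and 3 and ZHX2 shCtrl replicates 1 and 2, and with the replicate number as a block and with only the compared groups fitted (adjusted p reaching 0.197), and without ZHX2 shCtrl replicate 2 its log2 change was 0.10. SLC25A36 had 120.2, 117 and 122 CPM with sh50 and 134, 114 and 111 CPM with sh52, against 110.5, 112 and 97.3 CPM with the USP13 shCtrl, and passed with neither. SLC25A17, which carries cofactors into peroxisomes rather than mitochondria, rose with sh43 (log2 change 0.24 ± 0.093, edgeR adjusted p = 0.026), a call that ended without any 1 of sh43 replicates 2 and 3 and ZHX2 shCtrl replicate 1, and with upper-quartile scaling (adjusted p reaching 0.196); without sh43 replicate 2 its log2 change was 0.15. SLC25A26, the S-adenosylmethionine carrier, passed in none of the 4 comparisons.

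Iron enters mitochondria through the mitoferrins SLC25A37 and SLC25A28, and glutathione through SLC25A39 and SLC25A40. SLC25A37 had 111, 107 and 101 CPM with sh43 and 201, 200.3 and 201 CPM with sh45, against 132, 127 and 138 CPM with shCtrl. The sh43 libraries lay below the controls and the sh45 libraries above them with no overlap (sh43 log2 change -0.32 ± 0.053, edgeR adjusted p = 8.1e-06; sh45 0.60 ± 0.052, adjusted p = 2.4e-10). With sh50 it rose to 157, 159 and 160.3 CPM, and it had 159.6, 145 and 153 CPM with sh52, against 136, 137 and 141 CPM with shCtrl (sh50 log2 change 0.20 ± 0.056, edgeR adjusted p = 0.0097; sh52 0.14 ± 0.056, adjusted p = 0.097). SLC25A28 had 24.4, 26.4 and 25.0 CPM with sh43 and 33.7, 32.4 and 39.3 CPM with sh45, against 20.8, 21.3 and 21.4 CPM with shCtrl. It rose with both, most with sh45 (sh45 log2 change 0.73 ± 0.087, edgeR adjusted p = 8.2e-08; sh43 0.25 ± 0.090, adjusted p = 0.014), and the sh43 call ended without sh43 replicate 2 (edgeR adjusted p = 0.0617). With the USP13 hairpins SLC25A28 had 27.3, 26.3 and 27.0 CPM with sh50 and 20.4, 25.3 and 26.9 CPM with sh52, against 21.2, 21.4 and 24.3 CPM with shCtrl, and it did not pass with either.

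SLC25A39, the fourth most abundant member of the family, had 174, 166 and 176 CPM with sh43 and 125, 136 and 142 CPM with sh45, against 123, 122 and 112 CPM with shCtrl. It rose with both ZHX2 hairpins (sh43 log2 change 0.53 ± 0.056, edgeR adjusted p = 4.7e-09; sh45 0.17 ± 0.057, adjusted p = 0.012). In the USP13 experiment it had 148, 154 and 152 CPM with sh50 and 123, 149 and 138.5 CPM with sh52, against 127, 129.6 and 129.5 CPM with shCtrl, and rose with sh50 (log2 change 0.23 ± 0.063, edgeR adjusted p = 0.0077). The sh45 call for SLC25A39 ended without any 1 of sh45 replicate 3 and ZHX2 shCtrl replicate 3 (adjusted p reaching 0.0766). Its paralogue SLC25A40 moved in the opposite direction. It had 29.4, 29.6 and 29.9 CPM with sh43 and 23.4, 24.0 and 25.9 CPM with sh45, against 31.9, 32.1 and 38.2 CPM with shCtrl, with every hairpin library below every control. SLC25A40 fell with both (sh45 log2 change -0.48 ± 0.085, edgeR adjusted p = 3.6e-05; sh43 -0.20 ± 0.084, adjusted p = 0.035). The sh43 call ended without any 1 of sh43 replicates 1, 2 and 3, sh45 replicate 3 and ZHX2 shCtrl replicate 3, and with all genes kept, with only the compared groups fitted and in DESeq2 (adjusted p reaching 0.273), and without ZHX2 shCtrl replicate 3 the log2 change was -0.11. In the USP13 libraries SLC25A40 had 24.6, 26.0 and 27.4 CPM with sh50 and 29.8, 29.7 and 21.9 CPM with sh52, against 27.1, 25.2 and 24.1 CPM with shCtrl, and it did not pass with either. SLC25A20, the carnitine/acylcarnitine carrier of fatty acid oxidation, passed in none, with its lowest log2 change of -0.32 ± 0.14 with sh45 (edgeR adjusted p = 0.056).

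The relatives of the uncoupling proteins, SLC25A14, SLC25A27 and SLC25A30, have been studied mainly in brain and kidney, and their substrates are less settled. SLC25A27 was among the low members, at 4.30 ± 0.609 TPM in the USP13 controls and 2.68 ± 0.495 TPM in the ZHX2 controls, and it showed the family's highest log2 change with sh50. It had 12.2, 14.0 and 11.7 CPM with sh50 and 9.97, 10.8 and 9.91 CPM with sh52, against 5.46, 7.08 and 7.49 CPM with shCtrl. All 6 hairpin libraries exceeded the controls, at 1.89 and 1.53 times their level (sh50 log2 change 0.92 ± 0.15, edgeR adjusted p = 6.4e-05; sh52 0.61 ± 0.15, adjusted p = 0.0096). The sh52 call for SLC25A27 ended without USP13 shCtrl replicate 1 (edgeR adjusted p = 0.0692). In the ZHX2 experiment SLC25A27 had 1.73, 0.894 and 1.11 CPM with sh43 and 4.64, 5.36 and 4.12 CPM with sh45, against 3.21, 4.71 and 3.98 CPM with shCtrl. It fell with sh43 to 0.313 times the control (log2 change -1.68 ± 0.28, edgeR adjusted p = 6.7e-06), while the sh45 libraries overlapped the controls (0.24 ± 0.22, adjusted p = 0.39). SLC25A30, the kidney member of this group, had 26.2, 25.6 and 25.4 CPM with sh43 and 32.8, 29.7 and 30.1 CPM with sh45, against 47.4, 47.6 and 53.4 CPM with shCtrl. It fell with both and no hairpin library reached the controls (sh43 log2 change -0.94 ± 0.077, edgeR adjusted p = 2.9e-11; sh45 -0.68 ± 0.075, adjusted p = 2.3e-08). It had 83.8, 84.4 and 84.6 CPM with sh50 and 95.1, 88.1 and 90.2 CPM with sh52, against 91.4, 100.2 and 87.1 CPM with the USP13 shCtrl, and did not pass. SLC25A14 fell with sh43 (log2 change -0.50 ± 0.19, edgeR adjusted p = 0.021). That call ended without any 1 of sh43 replicates 1 and 2 and ZHX2 shCtrl replicate 1 (adjusted p reaching 0.179), and without ZHX2 shCtrl replicate 1 the log2 change was -0.31.

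**Figure D4:**
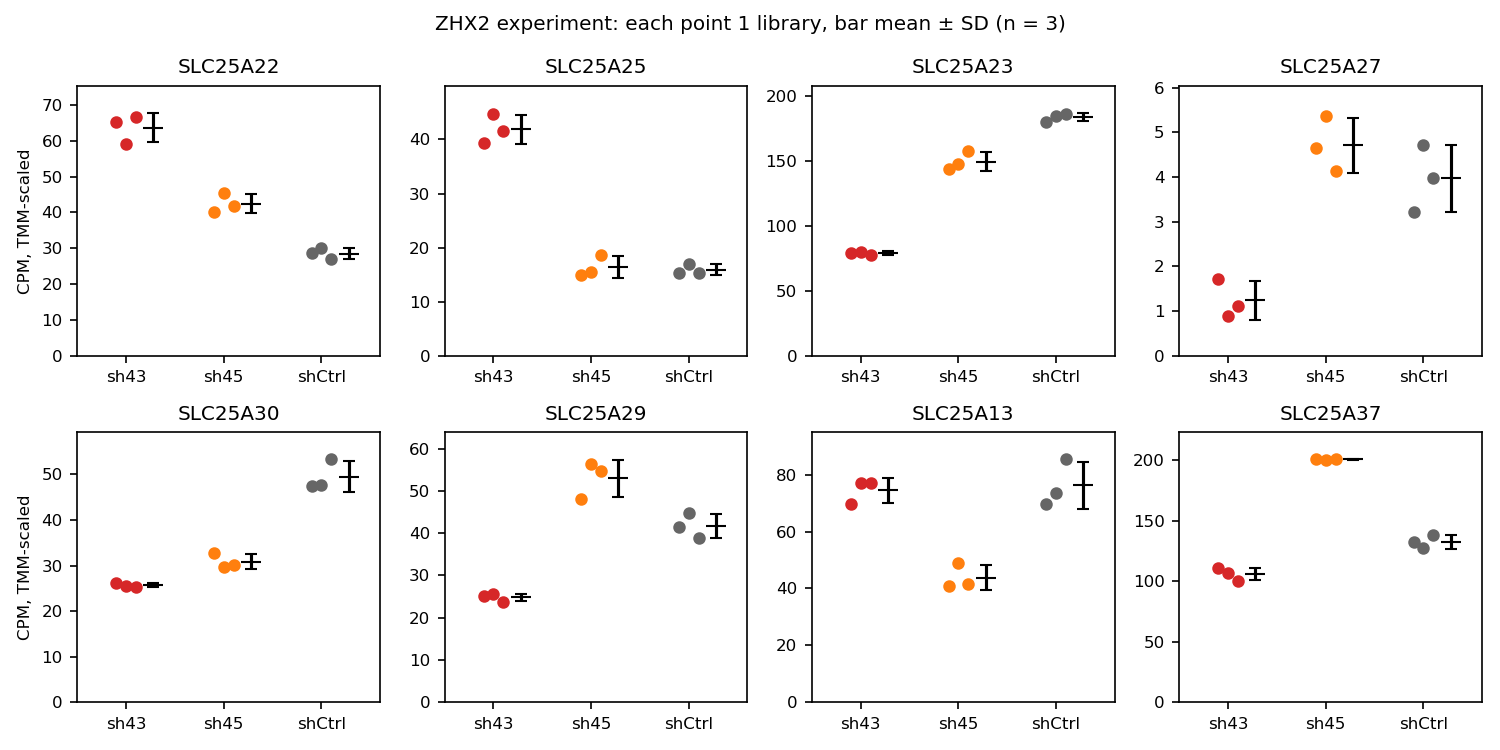
TMM-scaled CPM of 8 members in the 9 libraries of the ZHX2 experiment, each point 1 library, with mean and SD (n = 3) beside the points. SLC25A22 is above and SLC25A23 and SLC25A30 are below the control with both hairpins, SLC25A29 and SLC25A37 are lower with sh43 and higher with sh45, SLC25A25 and SLC25A27 depart with sh43 and SLC25A13 departs with sh45.

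Among members whose role is less settled, SLC25A46, a protein of the outer membrane tied to mitochondrial shape, had the highest mean TPM over both controls, at 27.4 beside 25.7 of SLC25A43, and these 2 members overlapped. SLC25A46 had 57.8, 57.8 and 54.3 CPM with sh43 and 50.2, 48.5 and 44.7 CPM with sh45, against 69.3, 65.0 and 64.2 CPM with shCtrl. Every hairpin library lay below the controls, and it fell with both (sh45 log2 change -0.47 ± 0.066, edgeR adjusted p = 1.1e-06; sh43 -0.22 ± 0.065, adjusted p = 0.0035). Among the USP13 libraries it had 67.6, 71.7 and 80.9 CPM with sh50 and 75.9, 73.9 and 77.8 CPM with sh52, against 85.5, 79.6 and 76.5 CPM with shCtrl, and did not pass. The other called members of this group were low. SLC25A53 had 0.865, 0.511 and 1.11 CPM with sh43 and 2.35, 1.97 and 2.16 CPM with sh45, against 3.21, 2.47 and 2.75 CPM with shCtrl, and fell with sh43 (log2 change -1.78 ± 0.32, edgeR adjusted p = 2.5e-05). The sh45 libraries also lay below the controls but did not pass (-0.37 ± 0.27, adjusted p = 0.27, edgeR). Under the USP13 hairpins SLC25A53 had 3.22, 5.78 and 5.23 CPM with sh50 and 3.46, 4.28 and 4.02 CPM with sh52, against 5.07, 3.51 and 4.94 CPM with shCtrl, and it did not pass with either. SLC25A34 had 2.74, 2.11 and 1.51 CPM with sh43 and 1.18, 1.18 and 1.05 CPM with sh45, against 1.30, 1.01 and 1.10 CPM with shCtrl, and rose with sh43 (log2 change 0.90 ± 0.33, edgeR adjusted p = 0.016). This SLC25A34 call ended without any 1 of sh43 replicate 1 and ZHX2 shCtrl replicate 2 (adjusted p reaching 0.11). Under the USP13 hairpins SLC25A34 had 4.47, 3.40 and 2.94 CPM with sh50 and 4.46, 2.75 and 3.88 CPM with sh52, against 1.71, 2.69 and 2.63 CPM with shCtrl, with all hairpin libraries above the controls, and it did not pass (log2 0.59 ± 0.28 and 0.65 ± 0.28; edgeR adjusted p = 0.14 and 0.13). SLC25A45 had 1.15, 1.41 and 2.62 CPM with sh43 and 0.981, 1.66 and 1.38 CPM with sh45, against 1.84, 3.41 and 2.06 CPM with shCtrl. Its sh45 libraries lay below the controls and it fell (log2 change -0.88 ± 0.35, edgeR adjusted p = 0.035), but the call ended without any 1 of sh45 replicates 1 and 3 and ZHX2 shCtrl replicate 2, and with effective lengths as offsets and in DESeq2 (adjusted p reaching 0.243), and without ZHX2 shCtrl replicate 2 the log2 change was -0.54. Under the USP13 hairpins SLC25A45 had 3.13, 2.52 and 2.76 CPM with sh50 and 3.75, 3.47 and 2.94 CPM with sh52, against 3.66, 3.45 and 3.43 CPM with shCtrl, and it did not pass with either. SLC25A35 rose with sh45 (log2 change 0.44 ± 0.18, edgeR adjusted p = 0.043), which ended without any 1 of sh45 replicates 2 and 3 and ZHX2 shCtrl replicate 3, and with the replicate number as a block, with effective lengths as offsets and in DESeq2 (adjusted p reaching 0.182). The genes SLC25A45 and SLC25A35 overlap FRMD8 and RANGRF, which had 11139 and 4101 counts in all libraries against 629 and 2187 of these members, and SLC25A53 overlaps ZCCHC18 and LOC286437, with 670 and 959 counts against 793. SLC25A43 passed in none.

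The hairpins of a target were then set against each other. Between sh52 and sh50, 2 of 40 members were lower and 0 higher by the edgeR test, where 5.48% of genes were higher and 4.74% lower. At an unadjusted p under 0.05, 9 members differed, and DESeq2 called 1 higher and 2 lower. SLC25A16 had 50.2, 49.4 and 46.5 CPM with sh52 and 63.4, 62.3 and 63.3 CPM with sh50, with every sh52 library below every sh50 library (log2 difference -0.37 ± 0.076, edgeR adjusted p = 0.0021). SLC25A10 had 60.1, 78.6 and 77.5 CPM with sh52 and 86.9, 99.7 and 88.6 CPM with sh50, also without overlap (log2 difference -0.35 ± 0.083, edgeR adjusted p = 0.0068). The SLC25A10 call ended without sh50 replicate 2 (edgeR adjusted p = 0.0646). Leaving out sh50 replicate 2 left 1 call and leaving out sh52 replicate 2 gave 4. For SLC25A24, SLC25A27 and SLC25A1, the difference between sh52 and sh50 was 0.12 ± 0.082, -0.31 ± 0.14 and -0.02 ± 0.069 on the log2 scale and did not pass (edgeR adjusted p = 0.39, 0.19 and 0.92). Without sh52 replicate 1, the library that stood apart, sh52 gave 5 calls in place of 6 and sh50 gave 13 in place of 10.

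Between sh45 and sh43, 12 of 39 members were higher and 16 lower, where 34.2% of genes were higher and 32.7% lower. The members' shares were 30.8% higher and 41.0% lower. Members higher with sh45 included SLC25A27 (1.91 ± 0.27 on the log2 scale), SLC25A53 (1.41 ± 0.33), SLC25A29 (1.09 ± 0.080), SLC25A37 (0.92 ± 0.053) and SLC25A23 (0.92 ± 0.053). Those lower with sh45 included SLC25A25 (-1.35 ± 0.094), SLC25A34 (-0.90 ± 0.32), SLC25A51 (-0.79 ± 0.14), SLC25A13 (-0.77 ± 0.079) and SLC25A44 (-0.69 ± 0.081), and each of these 10 differences passed the edgeR test. Several were differences of direction and not of size. SLC25A37, SLC25A29 and SLC25A36 fell with sh43 and rose with sh45, and SLC25A24 did the reverse. For SLC25A36 and SLC25A24 the sh45 calls were near the threshold (edgeR adjusted p = 0.047 and 0.046). They ended in 9 and 11 of 15 alternatives. The knockdown of ZHX2 itself differed between the hairpins, at 84.2 ± 5.87 CPM with sh45 and 40.2 ± 2.74 CPM with sh43. For SLC25A16, SLC25A4 and SLC25A12 the difference did not pass, at 0.10 ± 0.088, 0.01 ± 0.10 and 0.10 ± 0.10. Of the calls, SLC25A17 ended without any 1 of sh43 replicates 2 and 3 and sh45 replicate 2, and with upper-quartile scaling (adjusted p reaching 0.173), SLC25A34 without any 1 of sh43 replicate 1 and sh45 replicate 3 (adjusted p reaching 0.11), SLC25A38 without sh43 replicate 2, and with upper-quartile scaling (adjusted p reaching 0.0658) and SLC25A42 without sh45 replicate 3 (edgeR adjusted p = 0.0558). Without sh43 replicate 2 the SLC25A17 difference was -0.16.

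The USP13 response (the mean of sh52 and sh50 minus its shCtrl) was tested against the ZHX2 response (the mean of sh45 and sh43 minus its own shCtrl) in a fit of all 18 libraries. Of 40 members, 10 were higher and 8 lower in the USP13 response, where 22.7% of genes were higher and 20.7% lower. The highest difference was that of SLC25A27 (log2 1.47 ± 0.24, edgeR adjusted p = 5.8e-06), followed by SLC25A53 (1.02 ± 0.32, adjusted p = 0.01) and SLC25A30 (0.71 ± 0.084, adjusted p = 1.4e-08). The lowest were SLC25A22 (-0.81 ± 0.098, edgeR adjusted p = 2.2e-08), SLC25A24 (-0.63 ± 0.088, adjusted p = 3.5e-07) and SLC25A44 (-0.52 ± 0.12, adjusted p = 0.0006). Called changes in opposite directions with hairpins of the 2 targets were those of SLC25A27 (higher with sh52 and sh50, lower with sh43), SLC25A24 (lower with sh52 and sh50, higher with sh43), and SLC25A10 and SLC25A37 (both higher with sh50 and lower with sh43). These opposite directions hold for sh43 and not for sh45, with which SLC25A37 was called higher, SLC25A24 was called lower, and SLC25A27 and SLC25A10 were not called. Members called with hairpins of both targets need not differ. SLC25A16 and SLC25A1 differed by -0.01 ± 0.10 and 0.10 ± 0.088 (edgeR adjusted p = 0.95 and 0.38), and a p above the threshold does not show equal responses. A mean over sh45 and sh43 hides members that moved apart, as for SLC25A37, whose difference was 0.02 ± 0.066. The call for SLC25A25 ended without any 1 of sh45 replicate 3 and ZHX2 shCtrl replicates 1 and 3 (adjusted p reaching 0.0623), and that for SLC25A40 without ZHX2 shCtrl replicate 3 (edgeR adjusted p = 0.0592). SLC25A39 ended without any 1 of USP13 shCtrl replicate 2, sh45 replicate 3 and ZHX2 shCtrl replicate 3, and with upper-quartile scaling (adjusted p reaching 0.129), and SLC25A46 without any 1 of sh50 replicate 3, USP13 shCtrl replicates 2 and 3 and ZHX2 shCtrl replicate 1, and in DESeq2 (adjusted p reaching 0.0987). SLC25A36 ended without any 1 of sh52 replicate 1, USP13 shCtrl replicate 3, sh43 replicate 1 and ZHX2 shCtrl replicates 1 and 3, and in DESeq2 (adjusted p reaching 0.154), and SLC25A28 without any 1 of sh50 replicate 2, sh52 replicate 1, USP13 shCtrl replicate 3, sh43 replicate 2, sh45 replicate 3 and ZHX2 shCtrl replicates 1, 2 and 3, and with upper-quartile scaling (adjusted p reaching 0.126). SLC25A29 ended without any 1 of sh50 replicates 1 and 2, sh52 replicates 2 and 3, USP13 shCtrl replicates 1 and 2, sh43 replicates 1 and 3, sh45 replicate 1 and ZHX2 shCtrl replicates 1 and 2, and with the replicate number as a block and in DESeq2 (adjusted p reaching 0.2).

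**Figure D5:**
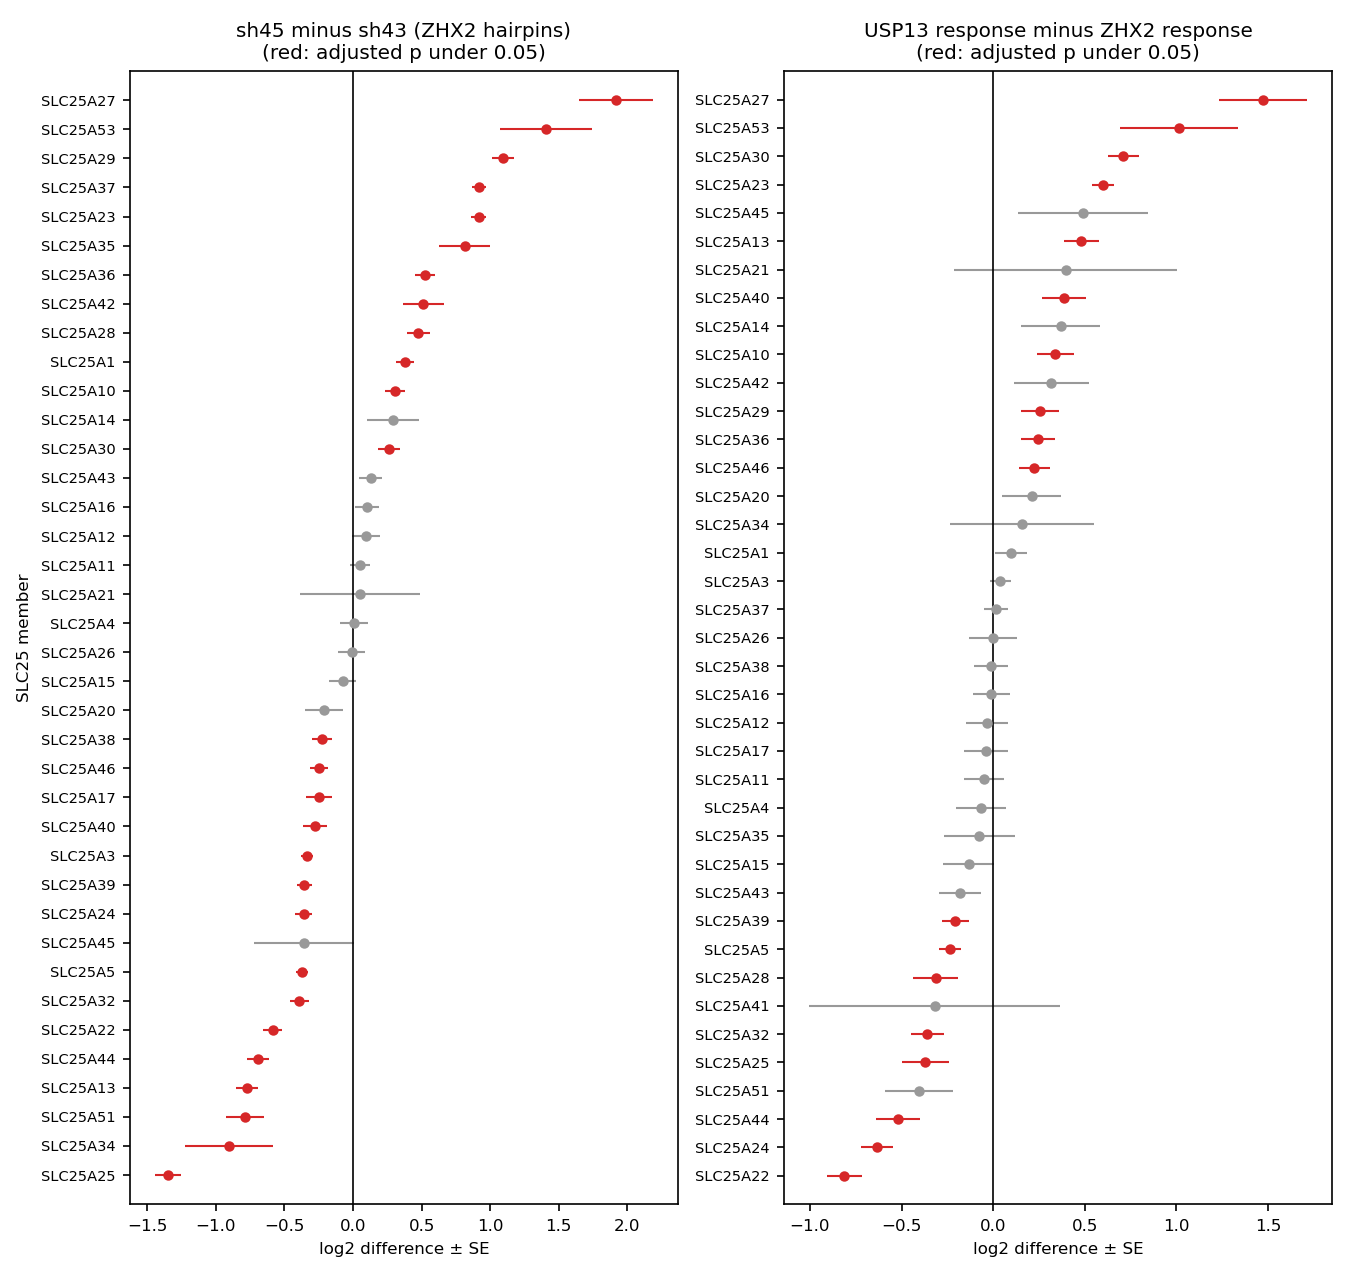
log2 differences with standard errors of the tested SLC25 members, sh45 minus sh43 on the left and the USP13 response minus the ZHX2 response on the right, with red points for an edgeR adjusted p under 0.05. Among the members drawn, 12 are red on the positive side and 15 on the negative side on the left, and 10 and 8 on the right; SLC25A27 is at the top of both panels.

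Members of the same family that carry other symbols, UCP1 to UCP3, MTCH1 and MTCH2, were counted beside them. The counts of this list and of the next 3 lists stand beside the shares over all tested genes, which were 10.2% higher and 11.3% lower with sh50, 5.45% and 6.56% with sh52, 33.5% and 35.2% with sh43, and 25.3% and 27.3% with sh45. These lists are small and nothing is called particular to them. Of those tested, 0 rose and 1 of 4 fell with sh50 and with sh52, 2 rose and 1 fell of 3 with sh43, and 0 rose and 1 of 3 fell with sh45. UCP2, the widely expressed uncoupling protein, fell with both ZHX2 hairpins, by a log2 change of -1.88 ± 0.071 with sh43 and -1.88 ± 0.071 with sh45 (edgeR adjusted p = 3.6e-18 and 8.2e-18), and with sh50 (-0.43 ± 0.056, adjusted p = 2.6e-06). MTCH2, an insertase of the outer membrane, and MTCH1 rose with sh43 (0.60 ± 0.065 and 0.26 ± 0.048; edgeR adjusted p = 5.2e-09 and 3.1e-05), and MTCH1 fell with sh52 (-0.23 ± 0.064, adjusted p = 0.018). Carriers enter mitochondria through the outer-membrane TOM complex, small TIM chaperones and the TIM22 complex. Of 16 genes of this import route, 5 rose and 0 fell with sh50, 0 rose and 0 fell with sh52, 9 rose and 1 fell with sh43, and 4 rose and 2 fell with sh45. Their median log2 changes were 0.17, 0.08, 0.25 and 0.115, beside 0.003, -0.001, -0.022 and -0.007 over all tested genes. TOMM40, the channel of the outer membrane, rose with sh43 (1.01 ± 0.069, edgeR adjusted p = 6.2e-13), sh45 (0.44 ± 0.070, adjusted p = 7.2e-06) and sh50 (0.26 ± 0.081, adjusted p = 0.023), while TOMM20, its receptor, fell with sh43 (-0.83 ± 0.046, adjusted p = 1.1e-14) and rose with sh50 (0.14 ± 0.049, adjusted p = 0.038).

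Of 16 other transport proteins of the mitochondrial membranes, 1 rose and 2 fell with sh50, 1 rose and 3 fell with sh52, 8 rose and 4 fell with sh43, and 4 rose and 7 fell with sh45, where 25.3% of all tested genes were higher and 27.3% lower. MCU, the pore of the calcium uniporter, fell with sh43 (-1.90 ± 0.075, edgeR adjusted p = 7.6e-18), sh45 (-0.74 ± 0.069, adjusted p = 8.7e-10) and sh52 (-0.23 ± 0.063, adjusted p = 0.018). The subunits of the pyruvate carrier parted with the ZHX2 hairpins. MPC2 fell with sh43 (-0.99 ± 0.065, edgeR adjusted p = 3e-13) and sh45 (-0.90 ± 0.064, adjusted p = 4.9e-12), and MPC1 rose with sh43 (0.59 ± 0.18, adjusted p = 0.0044) and sh45 (1.10 ± 0.17, adjusted p = 4.6e-06). MPC2 also fell with sh50 and sh52 (-0.21 ± 0.055 and -0.20 ± 0.055; edgeR adjusted p = 0.0065 and 0.018). Of the 4 enzymes of the malate-aspartate shuttle, 1 rose with sh50 (GOT1, 0.21 ± 0.056, edgeR adjusted p = 0.0065), and none passed with sh52 or sh45. With sh43, 2 rose (MDH2, 0.38 ± 0.048, edgeR adjusted p = 7.4e-08, and GOT2, 0.34 ± 0.050, adjusted p = 1.1e-06). Of the carriers of this shuttle, SLC25A13 was lower with sh45, SLC25A12 was higher and SLC25A11 did not pass.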

How the data were processed

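RNA-seq libraries of 786-O cells (6 groups of 3) were prepared with a TruSeq kit, per the labels' protocols, which does not mark strand. The files deposited by the authors give, per the file headers, Salmon's estimated counts per transcript (NumReads), TPM and effective length. Per the submitters' processing notes the build was hg19 and the tools were Salmon 0.11.3, STAR 2.5.2b, DESeq2 1.14.1 and cutadapt 1.12, with no roles given. The deposited estimated counts were whole to within 1e-06 and were rounded and summed to 27086 genes through the RefSeq table (59301 transcripts) or GENCODE's RefSeq list (684); 437 unnamed transcripts (0.0854% to 0.1204% of counts) were left out.

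Counts were tested with edgeR 4.0.16 (quasi-likelihood, filterByExpr, TMM, Benjamini-Hochberg over all genes) in R 4.3.3, with the 9 libraries of an experiment fitted together and all 18 for the difference between targets. Log2 changes are given ± SE. The script was tested on simulated data. Alternatives were DESeq2 1.42.0, upper-quartile factors, no filter on low counts, a replicate block, effective lengths as offsets, only the groups compared, and leaving out each library. TPM was used only for levels between genes and their sum. Values in every library are given for the up to 4 members that rose and up to 4 that fell most with each hairpin and for the most abundant member of each role group. The members and lists were chosen with earlier results of these data known. The values of 1 tested member are not reported here and it is not drawn, but it is kept in every count of members.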

Additional observations from a re-analysis of the deposited data

Results flagged for a closer look

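The responses to the targets differed by the test of the difference itself for 18 members, each given as the log2 difference, USP13 response minus ZHX2 response, in edgeR. The 10 higher in the USP13 response were SLC25A27 (1.473), SLC25A53 (1.016), SLC25A30 (0.711), SLC25A23 (0.601), SLC25A13 (0.48), SLC25A40 (0.387), SLC25A10 (0.34), SLC25A29 (0.255), SLC25A36 (0.243) and SLC25A46 (0.225). The 8 lower in it were SLC25A22 (-0.812), SLC25A24 (-0.634), SLC25A44 (-0.52), SLC25A25 (-0.371), SLC25A32 (-0.359), SLC25A28 (-0.314), SLC25A5 (-0.235) and SLC25A39 (-0.206). The ZHX2 response is a mean of sh43 and sh45, so a listed member need not differ from both. SLC25A25, listed as lower, had log2 changes of 0.27 with sh50 and 0.46 with sh52, against 1.40 with sh43 and 0.045 with sh45. For SLC25A29, listed as higher, they were 0.16 and -0.03, against -0.75 and 0.34. For SLC25A36, also listed as higher, they were 0.16 and 0.17, against -0.35 and 0.17. The experiments had separate control libraries, and whether a difference belongs to the target, to the hairpins or to the experiment cannot be told apart.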

How the results depend on the processing

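Of the calls of members, 7 of 10 with sh50, 3 of 6 with sh52, 21 of 27 with sh43, 12 of 22 with sh45, 1 of 2 for sh52 against sh50, 24 of 28 for sh45 against sh43 and 11 of 18 for the difference between targets were kept under every alternative run. Leaving out 1 library at a time gave 8 to 13, 4 to 6, 23 to 28, 15 to 20, 1 to 4, 26 to 28 and 13 to 18 calls. The comparison of sh52 with sh50 gave 1 call without sh50 replicate 2 and 4 calls without sh52 replicate 2; the cause was not tested. DESeq2 called 10, 6, 25, 17, 3, 28 and 15 members. No called member changed direction under any alternative, and of the repeated tests of called members 1684 stayed past the threshold and 155 missed it. Calls were also gained by members that did not pass, 18 in all over the comparisons, each in at least 1 alternative. SLC25A12 with sh43 gained it in 6 of 15 (edgeR adjusted p = 0.0506 in the fit reported, 0.032 at the lowest) and SLC25A25 with sh50 in 4 of 15 (0.0628, 0.0163 at the lowest). Same-numbered libraries did not deviate together (correlations of -0.103 to 0.055 in the USP13 and -0.064 to 0.038 in the ZHX2 experiment), so the numbers were not taken as pairs. With the replicate number as a block, 10, 5, 27, 17, 2, 28 and 17 members were called. Low members are limited by depth, since 3 counts are 0.182 to 0.268 CPM.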
